A study of Mus musculus with 16 samples.

Results

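On day 3 of neural differentiation, 632 of 80595 consensus regions of open chromatin (0.784%) were called open in both untreated Tet1 knockout (KO) libraries. They were called open in none of the other 8 libraries of that day, although only 24 had no weaker peak in any of these 8. These KO-alone regions were called open neither in wild type (WT) cells, with or without the Wnt activator CHIR99021 (CHIR), nor in Tet1 catalytic mutant (MUT) cells, nor in KO cells given the Wnt inhibitor XAV939 (XAV). They were chosen by their measured peaks: the 50000 distinct peaks with the highest −log10 p were kept in each of 16 libraries, windows of 150 bp on either side of the summits were merged, and windows held by at least 2 libraries became regions. A region was called open in a library when a kept peak overlapped it. The day 3 pattern is therefore a description. The day 2 libraries helped to build the consensus regions, but they, the position and the sequence were not used to choose the 632 among them. The KO, WT and MUT lines of day 2 are, however, the same as the untreated lines of day 3. A day 2 difference is therefore not independent of the lines that chose the regions.

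Mouse embryonic stem cells were taken toward anterior neural progenitor cells (antNPCs) and profiled with ATAC-seq, which cuts DNA where chromatin is accessible, in 8 groups of 2 libraries. All lines were F1 hybrids of the B6 and 129S6 strains. WT, MUT and KO cells were sampled on day 2 and day 3, and WT cells with 3 µM CHIR and KO cells with 5 µM XAV, both given from day 2, on day 3. The KO groups of both days and of XAV treatment share 1 pair of lines, the MUT lines are clones derived from 1 WT line, the line that also gave CHIR replicate 1, and the CHIR libraries come from other WT lines than the untreated ones, so that line and treatment cannot be told apart there. There is no group with the vehicle alone. The labels name separate lines within a group, and any p-value sets the KO lines against the WT and MUT lines pooled. The MUT lines share 1 parent, and the labels do not say how the untreated WT lines relate to it. The pooled lines may thus not be independent of each other.

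TET1 oxidises methylated cytosine and also acts on chromatin without that activity. CHIR inhibits the kinase GSK3, which stabilises β-catenin and turns on targets of the TCF/LEF factors, and XAV stabilises Axin and lowers β-catenin. In the gastrulating embryo, Wnt and Nodal signals form the primitive streak, where T-box factors, FOXH1 with SMAD proteins, and the forkhead factor FOXA2 act at enhancers of mesoderm and endoderm genes. Forkhead factors can bind sites in closed chromatin.

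The deposited lists held 135359 to 219047 distinct peaks a library, with a −log10 p at rank 50000 between 6.84 (KO day 3 replicate 2) and 21.8 (KO day 2 replicate 1). Read depth is unknown. An intronic region of Tet1 at chr10:62884128-62884462 was open in 10 of 10 libraries of WT and MUT cells and in 0 of 6 libraries of the KO lines, and none of the 10 regions in the gene body was a KO-alone region. Promoters of 13 to 14 of 15 genes of formative and core pluripotency and of 17 to 24 of 24 neuroectoderm genes were open across the 16 libraries. For genes of other cell types these counts were 7 to 8 of 12 for extraembryonic endoderm, 6 to 8 of 12 for trophoblast and 8 to 10 of 14 for fibroblasts, and the day 3 KO libraries lay within these ranges.

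The sequences below are the middle base and 100 bp on either side of it in 7 KO-alone regions, from GRCm38.p6, plus strand. The first 5 belong to the regions with the strongest peaks in the KO libraries, and those near Foxa2 and Lefty1, the latter of which had no deposited peak in any of the other 8 day 3 libraries, were added after their values were seen. Capitals mark short words, on either strand, that match the binding sites of forkhead factors (TGTTTAC or TGTTTGC), FOXH1 (AATCCACA or AATACACA), TCF/LEF (CTTTGAA or CTTTGAT), T-box factors (AGGTGTGA or AGGTGTTA) and SNAIL-type E-boxes (CAGGTG). The E-box word shares 5 letters with the T-box words and can overlap them or a FOXH1 word.
Upstream of Rraga, chr4:86575019-86575219: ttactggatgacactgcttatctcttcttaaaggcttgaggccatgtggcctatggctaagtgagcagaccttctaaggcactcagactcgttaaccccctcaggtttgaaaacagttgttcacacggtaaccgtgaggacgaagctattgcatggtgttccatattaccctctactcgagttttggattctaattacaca
Intergenic, no coding start within 100 kb, chr8:125381794-125381994: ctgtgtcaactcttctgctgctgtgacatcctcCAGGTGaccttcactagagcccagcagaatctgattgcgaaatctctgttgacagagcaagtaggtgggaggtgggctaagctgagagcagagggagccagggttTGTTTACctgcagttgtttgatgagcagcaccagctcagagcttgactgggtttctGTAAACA
Intron of Urb1, chr16:90779897-90780097: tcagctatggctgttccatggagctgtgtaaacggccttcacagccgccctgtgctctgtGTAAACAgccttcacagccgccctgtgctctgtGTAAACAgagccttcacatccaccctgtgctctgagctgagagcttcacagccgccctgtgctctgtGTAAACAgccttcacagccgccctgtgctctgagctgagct
Intron of Iqgap2, chr13:95817324-95817524: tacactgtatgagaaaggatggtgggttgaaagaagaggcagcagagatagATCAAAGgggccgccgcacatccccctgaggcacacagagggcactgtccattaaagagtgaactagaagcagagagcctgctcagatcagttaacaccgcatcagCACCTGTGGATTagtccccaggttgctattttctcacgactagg
Intron of Stx16, chr2:174092633-174092833: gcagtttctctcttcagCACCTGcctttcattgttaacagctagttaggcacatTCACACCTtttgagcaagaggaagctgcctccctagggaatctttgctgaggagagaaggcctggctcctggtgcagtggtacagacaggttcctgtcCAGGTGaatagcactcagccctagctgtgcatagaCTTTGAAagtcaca
Upstream of Foxa2, chr2:148084856-148085056: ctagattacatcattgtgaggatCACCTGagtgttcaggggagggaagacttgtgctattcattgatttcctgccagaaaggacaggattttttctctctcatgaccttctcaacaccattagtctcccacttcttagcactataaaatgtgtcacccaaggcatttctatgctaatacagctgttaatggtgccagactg
Upstream of Lefty1, chr1:180926359-180926559: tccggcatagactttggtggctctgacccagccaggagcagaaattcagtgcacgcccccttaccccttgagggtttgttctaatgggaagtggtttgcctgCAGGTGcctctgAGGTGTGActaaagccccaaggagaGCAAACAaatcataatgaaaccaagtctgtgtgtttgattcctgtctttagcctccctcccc
The Urb1 intron held 3 forkhead words in a short tandem repeat, the intergenic region on chromosome 8 held 2, and the Lefty1 region held 1 beside a T-box word and an E-box word. The Stx16 intron held a TCF/LEF word, a T-box word and 2 E-box words. The strongest region, 550 bp upstream of Rraga, held none of these words.

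The KO-alone regions were mostly weak peaks. Their median rank, where rank 1 is the strongest peak, was 37174.5 in KO replicate 1 and 40107 in replicate 2, and 428 of 632 (67.7%) ranked past 40000 in at least 1 of the libraries. In both libraries 11 ranked in the top 20000 and 1 in the top 10000. The median fold enrichment at the summit, the ratio to the local background given by the peak caller, was 7.15 in replicate 1 (3.21 to 16.1) and 5.00 in replicate 2 (2.88 to 8.93). Fold enrichments also depend on the depth of a library, which is unknown. Where they are compared between libraries below, the differences were neither adjusted for depth nor tested. Regions open in all 4 untreated KO and CHIR libraries and in no other day 3 library (KO-and-CHIR regions, 633, 0.785%) had lower median ranks in KO cells, 28542 and 36486. The same rule gave 322 regions (0.4%) for WT, 284 (0.352%) for MUT, 618 (0.767%) for XAV-treated KO and 5715 (7.09%) for CHIR-treated WT cells, and 86 regions (0.107%) were open in all 4 KO libraries, with and without XAV, and in no other library of that day. The count of KO-alone regions was thus close to that for KO cells with XAV.

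The limit of 50000 peaks did not separate presence from absence. Of the 632 regions, 24 (3.80%) had no deposited peak of any rank in the other 8 libraries of day 3, and 204 (32.3%) had a peak below the limit in all 8. The best rank among the 8 was past 50000 and at most 60000 for 307 regions (48.6%), just outside the rule. Conversely, both KO libraries had 43145 regions open, of which 560 were kept out by a single other library. MUT replicate 1 alone kept out 124 and CHIR replicate 1 alone 113, against 40 for MUT replicate 2 and 64 for CHIR replicate 2.

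The untreated WT libraries had the fewest of these weaker peaks. A deposited peak lay on 77.2% and 77.7% of the KO-alone regions in the CHIR libraries, on 63.6% and 59.0% in WT, on 75.5% and 68.5% in MUT and on 74.2% and 73.3% in KO with XAV. The CHIR values were the highest and the WT values the lowest, with no overlap between the 2 groups. Over all regions the CHIR values, 88.7% and 90.5%, were not above those of WT, 92.2% and 90.5%. Both CHIR libraries ranked a region ahead of both WT libraries for 207 regions (32.8%), and the reverse held for 98 (15.5%). The lean was not particular to CHIR: MUT was ahead of WT for 120 and behind for 41, and XAV-treated KO was ahead for 143 and behind for 64. Between the other groups the counts were closer, with CHIR ahead of MUT for 174 and behind for 134, and ahead of XAV-treated KO for 202 and behind for 155. These values come from the day 3 libraries that the rule used, and no test was made.

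**Figure D1:**
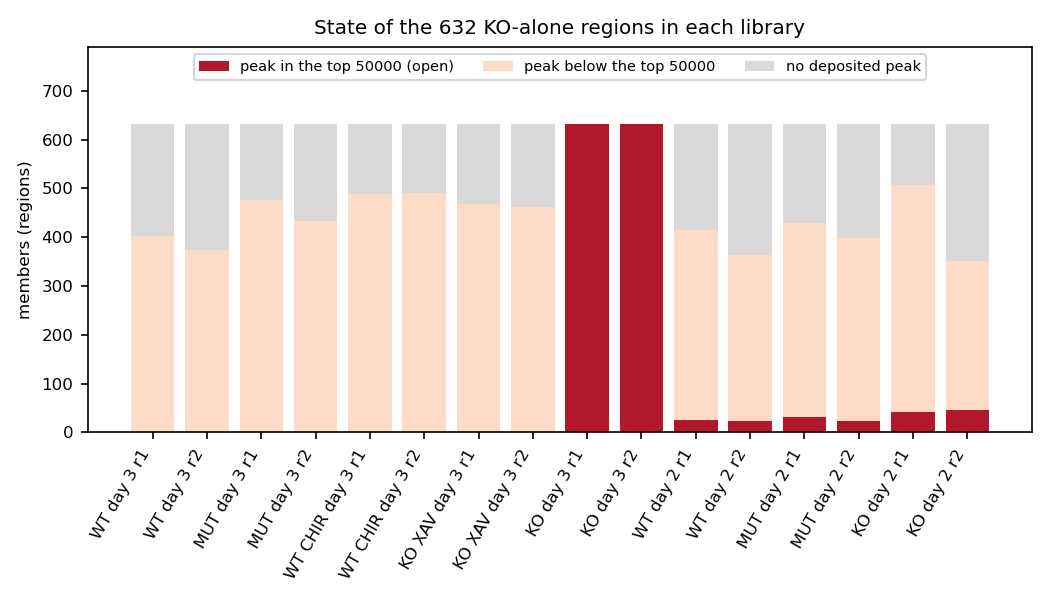
Number of KO-alone regions (vertical axis) in each of the 16 libraries (horizontal axis, r1 and r2 are replicates) that had a peak in the top 50000, a weaker deposited peak or no deposited peak. The day 3 bars outside KO have no open part by the rule, and the regions without any peak range there from 141 in a CHIR library to 259 in a WT library.

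On day 2 most of these regions were closed in every genotype. They were open for 6.49% and 7.12% in the KO libraries, 4.91% and 3.64% in MUT and 4.11% and 3.80% in WT, while 62.3% to 65.1% of all regions were open in those libraries. Both KO values lay above the other 4. The mean was 6.80% ± 0.448 (SD, n = 2) in KO and 4.11% ± 0.563 (SD, n = 4) in WT and MUT, a difference of 2.69 percentage points with a two-sided exact permutation p of 0.133, which is the smallest that 15 assignments allow, so that the design could not reach 0.05. Of the 632 regions, 529 (83.7%) were open in 0 of the 6 day 2 libraries and 2 in all 6. Both KO day 2 libraries, and no WT or MUT library of that day, had 6 of the regions open (0.949%), and 0.737% of all regions had that pattern. With no rank limit the KO values were 80.4% and 55.5%, on either side of those of WT and MUT, from 57.6% to 67.9%, and replicate 1 of KO had the longest list of all libraries and replicate 2 the shortest of day 2.

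Other sets defined on day 3 differed in how often they were open on day 2. In the 6 day 2 libraries, CHIR-alone regions were open for 1.12% to 1.66%, MUT-alone for 10.2% to 14.1% and WT-alone for 13.7% to 28.6%. The WT-alone regions were open for 27.02% and 28.57% in the WT libraries, against 13.7% to 18.6% in KO and MUT. For MUT-alone regions the MUT values, 14.1% and 12.3%, overlapped those of the other lines. A higher day 2 share in the lines that chose a set was thus not particular to the KO-alone regions. KO-and-CHIR regions were open on day 2 for 3.55% ± 0.335 (SD, n = 2) in KO and 2.69% ± 1.02 (SD, n = 4) in WT and MUT libraries. XAV-alone regions were open for 53.1% ± 6.87 (SD, n = 2) and 47.3% ± 5.69 (SD, n = 4). The two-sided exact permutation p for KO against WT and MUT was 0.533 for both sets. In each of the 6 day 2 libraries the KO-alone regions were thus open less often than the XAV-alone regions, and slightly more often than the KO-and-CHIR regions.

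**Figure D2:**
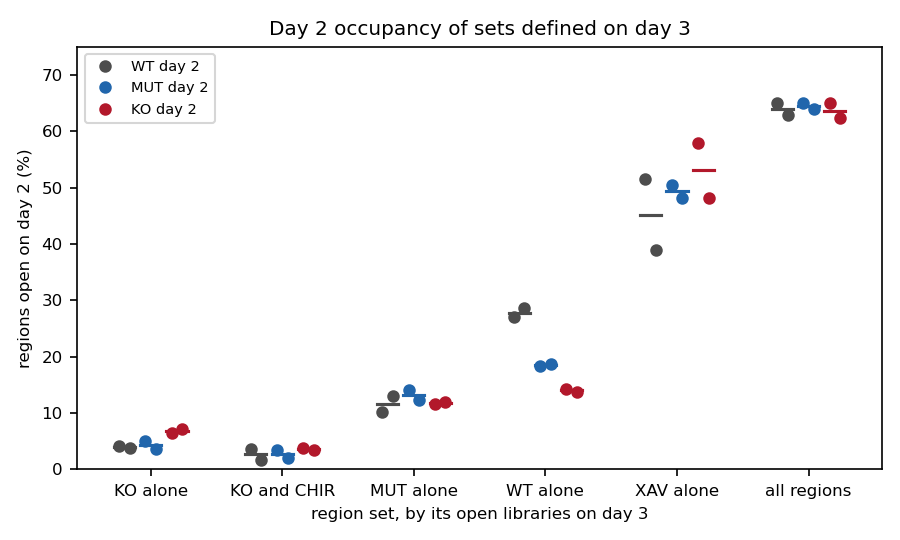
Share of regions open in each day 2 library (vertical axis, %) for 6 sets named by the libraries in which they were open on day 3 (horizontal axis). Points are libraries and short lines the means of 2, and the KO-alone regions lie between 3.64% and 7.12%, while the XAV-alone regions lie between 39.0% and 57.9%.

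The KO-alone regions lay mainly away from promoters. Of the 632, 266 (42.1%) were intergenic, 226 (35.8%) in introns and 20 (3.16%) in exons, each over 3 kb from every annotated transcription start site (TSS), and 120 (19.0%) lay within 3 kb of a TSS. The distal share of 81.0% compares with 59.1% of all regions, 84.7% of KO-and-CHIR regions and 79.8% of XAV-alone regions. The median region lay 12497 bp from a TSS, against 5459 bp for all regions. The sequence within 150 bp of their middle had a median GC content of 48.7% (all regions 53.5%), a mean of 3.32 CpG dinucleotides (all regions 9.37) and a mean of 12.9% repeat-masked bases (all regions 11.3%). The CpG content was close to that of KO-and-CHIR regions, 3.15, and of XAV-alone regions, 3.25. They were spread over the autosomes and chromosome X, from 0.45% of the regions on chromosome X to 1.12% of those on chromosome 16, with none of the 24 regions on chromosome Y, and 40 of them had another one within 50 kb.

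Forkhead words were frequent in these sequences and TCF/LEF words were not. The forkhead word was present within 150 bp of the middle in 195 KO-alone regions (30.9%), 25.8% of KO-and-CHIR regions, 9.55% of XAV-alone regions and 9.16% of all regions. As the regions are poor in GC, all other regions were also weighted to the same GC content, which gave 11.7%. The TCF/LEF word was present in 97 KO-alone regions (15.3%), against 14.6% of the other regions at that GC content, 10.9% of all regions, 7.77% of XAV-alone regions and 28.4% of KO-and-CHIR regions. The share of TCF/LEF words was therefore near the background here and higher in the regions that CHIR-treated cells shared.

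Words of other gastrulation factors were also present. The T-box word, bound by factors such as T and EOMES, was held by 7.75% of KO-alone and 14.5% of KO-and-CHIR regions, against 3.38% of other regions at the same GC content. The word of FOXH1, the DNA-binding partner of SMAD2 and SMAD3 in Nodal signalling, was held by 5.70%, against 2.69% of KO-and-CHIR regions and 2.61% at the same GC content. The E-box word, bound by SNAIL and related factors, was held by 42.4%, against 26.2% of KO-and-CHIR regions, 33.5% of XAV-alone, 38.5% of WT-alone and 31.0% of MUT-alone regions and 28.0% at the same GC content, and it was more frequent, 48.8%, in the 86 regions open in all 4 KO libraries alone. ZIC (29.1% and 20.9%) and GATA words (9.02% and 6.90%) differed less from that background, and the SMAD (18.0% and 17.3%), SOX (15.5% and 15.5%), bicoid (12.2% and 11.4%) and LIM homeobox words (6.96% and 6.55%) lay near it. Below it were the words of the AP-1 (8.39% and 11.5%), TEAD (9.18% and 12.8%), OCT (2.22% and 4.00%), ETS (1.42% and 2.40%) and CTCF families (1.74% and 4.41%), and less so of the KLF/SP (15.5% and 17.9%) and NFY families (7.91% and 9.60%). GRHL words were held by 1.90% and 1.66%, and no KO-alone region held an HNF1 word. A word match is not evidence of binding, and none of these shares was tested.

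**Figure D3:**
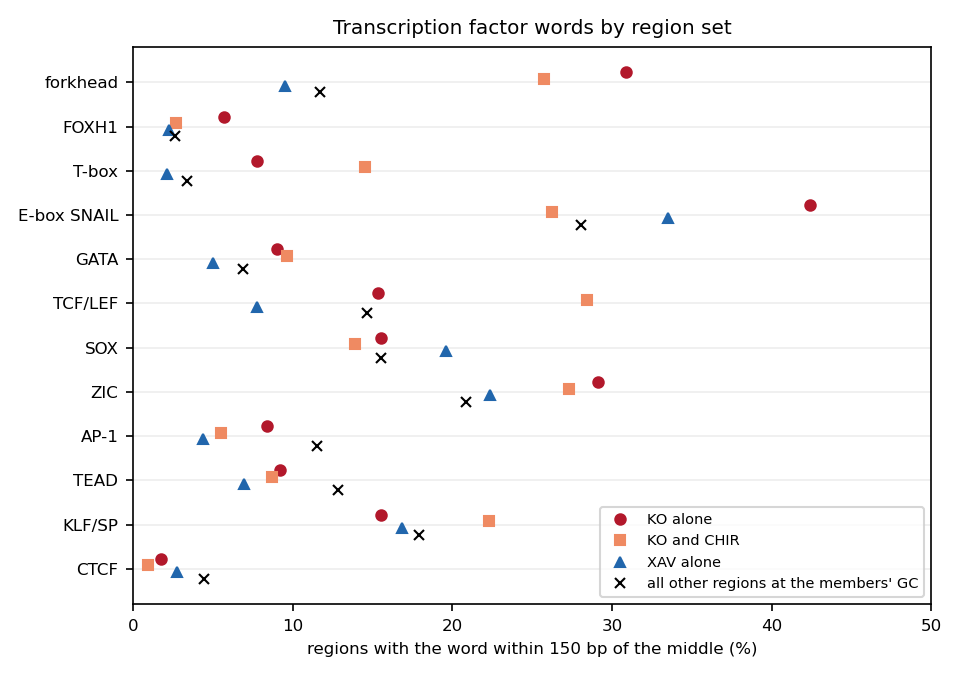
Share of regions that held a word of each family within 150 bp of the middle (horizontal axis, %) for 12 families (vertical axis). The KO-alone regions stand at 30.9% for forkhead words against 11.7% for other regions at the same GC content, and at 15.3% against 14.6% for TCF/LEF words, where KO-and-CHIR regions stand at 28.4%.

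The words varied with the strength of the peaks. When the regions were ordered by mean rank in KO cells, 95 of the strongest 211 (45.0%) held a forkhead word, compared with 56 of the middle 211 (26.5%) and 44 of the weakest 210 (21%). TCF/LEF words ran the other way by a few regions, from 28 (13.3%) over 31 (14.7%) to 38 (18.1%). T-box words showed no such order, with 7.11%, 10.4% and 5.71%. By position, 86.7% of the strongest 211 were distal, against 77.3% and 79.0% of the others. Forkhead words were held by 32.4% of the distal KO-alone regions and 24.2% of those within 3 kb of a TSS. None of these differences was tested. The strongest 211 were also open in any day 2 library less often, 9.0%, than the middle 211 (19.4%) and the weakest 210 (20.5%). In the untreated WT libraries of day 3 a weaker peak was present for 51.2% of the strongest 211 and 69.8% of the weakest 210, while for CHIR the order was 81.5% and 73.3%. Where both CHIR ranks were ahead of both WT ranks, 35.3% of the regions held a forkhead word and 18.4% a TCF/LEF word. Where both WT ranks were ahead the shares were 31.6% and 11.2%. In the other 327 regions (51.7%), with interleaved ranks, they were 27.8% and 14.7%. The forkhead share was thus lowest there and did not follow the order of CHIR and WT. These ranks come from day 3 libraries that the rule used. The regions with CHIR ahead and those with WT ahead differed more in their day 2 state, with 9.66% and 34.7% open in at least 1 day 2 library. For the interleaved regions this share was 15.0%.

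**Figure D4:**
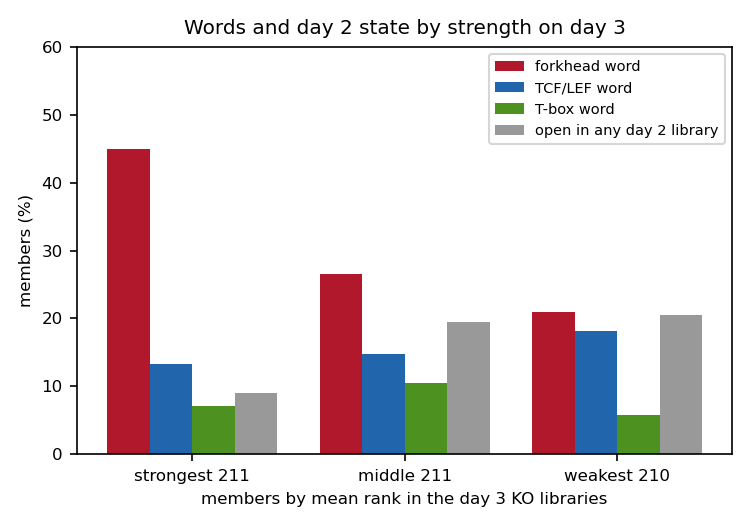
Share of KO-alone regions (vertical axis, %) that held a forkhead, TCF/LEF or T-box word or were open in at least 1 day 2 library, by mean rank in the day 3 KO libraries (horizontal axis, 211, 211 and 210 regions). Forkhead words go from 45.0% to 21% between the strongest and the weakest regions, and the day 2 share goes from 9.0% to 20.5%.

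The 5 strongest regions show the range of single-site patterns. In the intron of Urb1, which encodes a ribosome biogenesis factor, the fold enrichment was 13.5 and 7.44 in KO, 4.29 and 4.28 with CHIR, 3.24 and 3.08 in MUT, listed only in replicate 2 in WT (3.00) and only in replicate 1 with XAV (2.81). In the intron of Iqgap2, a scaffold protein of the IQGAP family, it was 13.6 and 8.93 in KO, 4.87 and 5.23 with CHIR, 3.81 and 3.67 in WT, 3.74 and 3.05 in MUT and 4.56 and 5.50 with XAV. In the intron of Stx16, a syntaxin of the trans-Golgi network, it was 11.8 and 8.11 in KO and 5.52 and 3.99 with CHIR, with 1 listed peak each in MUT (3.40) and WT (3.00) and none with XAV. In all of these the KO values stood above every other value of day 3. The rule and the choice of the strongest KO peaks make such an order likely. The region upstream of Rraga, a GTPase of the mTORC1 pathway, had 9.27 and 8.62 in KO, and it was open in 2 day 2 libraries, 1 of MUT and 1 of KO. The intergenic region on chromosome 8 had 9.45 and 7.43 in KO and at most 4.67 in the other libraries of day 3. The next in order were 2 regions with no protein-coding TSS within 100 kb and regions near Ifngr1, Bdkrb1, Efnb2, Kcnip1 and Tcl1, the last a gene of naive pluripotency.

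By the nearest protein-coding TSS within 100 kb, 463 of the regions were assigned to 446 genes, 431 of which had a single one. With 3 each, Foxa2 and Arl15, an ARF-like GTPase, had the most. The regions of Arl15 lay in its intron, 47922 bp, 51865 bp and 52310 bp downstream of the TSS. Those at 51865 bp and 52310 bp are close neighbours and may be parts of a single open stretch. Of the 446 genes, 25 (5.61%) also had a KO-and-CHIR region, which is 5.67% of the 441 genes with such a region. Within 50 kb of a KO-and-CHIR region lay 31 of the 632 regions (4.91%), and 4.77% of all regions did so.

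Foxa2, the forkhead factor of the node, anterior streak and definitive endoderm, had 19 assigned regions. The 3 KO-alone regions lay 13548 bp, 37986 bp and 50468 bp upstream of its TSS. The region at 37986 bp had fold enrichments of 6.51 and 7.37 in KO and 3.55 in MUT replicate 1, and no peak was listed in any of the other 13 libraries. The region at 13548 bp had 6.65 and 5.04 in KO and 4.77 and 2.99 with CHIR, with no peak listed in the other 12, and that at 50468 bp had 5.47 and 3.66 in KO, 5.30 and 3.69 with CHIR and 3.47 in MUT replicate 1. In the last the CHIR and KO values overlapped, and CHIR fell outside the rank limit in both libraries. Another 2 regions, 53073 bp upstream and 4859 bp downstream of the TSS, missed the rule only because they were also open in MUT replicate 1 of day 3. None of the 19 was a KO-and-CHIR region, and 1 was open in the CHIR libraries alone.

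Otx2, a homeobox factor of the anterior epiblast, the anterior visceral endoderm and the forebrain, had 2 KO-alone regions among 15, at 34410 bp and 87658 bp upstream. The nearer had fold enrichments of 6.27 and 5.21 in KO, 3.70 and 2.72 with XAV and 2.11 in CHIR replicate 1, and no peak listed in WT or MUT. The farther had 7.40 and 4.68 in KO and no listed peak in the other 8 libraries of day 3. At both genes the KO-alone regions stood among others that were open in most libraries.

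**Figure D5:**
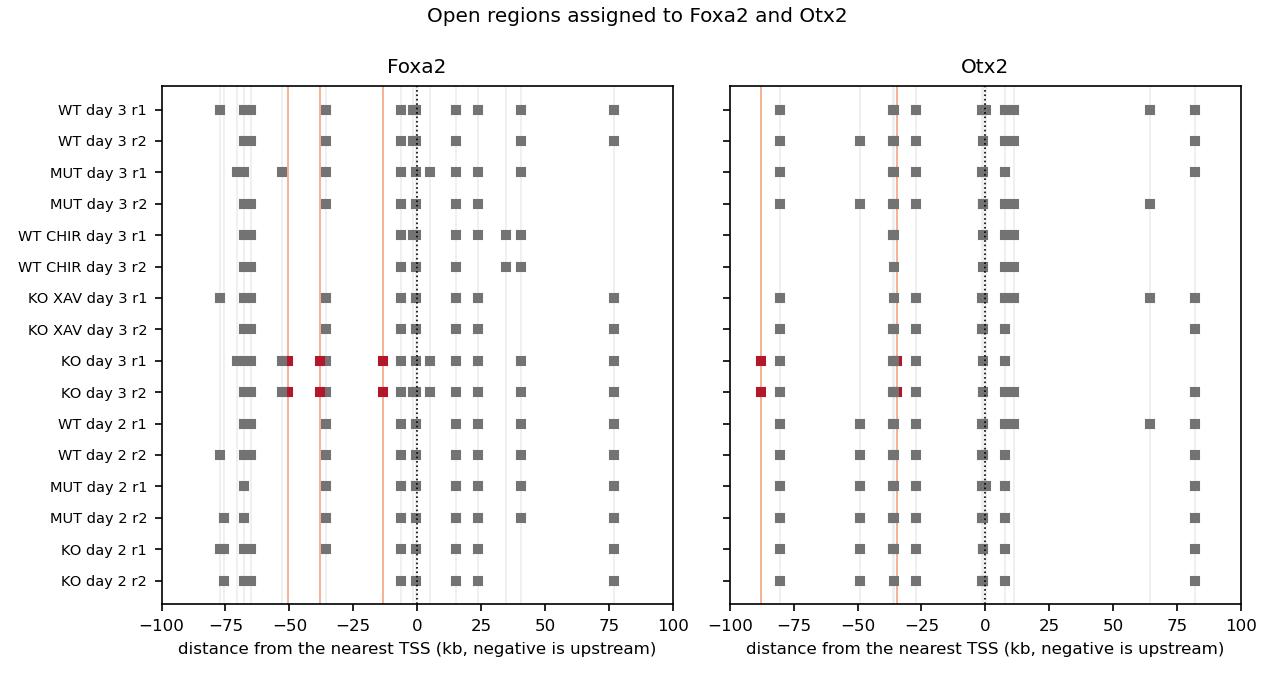
Open regions assigned to Foxa2 (left) and Otx2 (right) in the 16 libraries (vertical axis) by distance from the nearest TSS of the gene (horizontal axis, kb, negative is upstream). Squares mark open regions and the KO-alone regions are in red: 3 upstream of Foxa2 and 2 upstream of Otx2, each open in both day 3 KO libraries and in no other library.

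Genes of the streak, the node and the endoderm accounted for few of the regions. Of 167 regions at 18 primitive streak genes, 5 (2.99%) were KO-alone regions, the 3 at Foxa2 and 1 each at Nodal and T, and 10 (5.99%) were KO-and-CHIR regions. Of 73 regions at 14 node and anterior streak genes 2 (2.74%) were KO-alone, both at Otx2, and of 115 at 17 definitive endoderm genes 1 (0.870%), at Gata6. All of these shares can be read against the 0.784% of all regions. Otx2 is also in the Epiblast list of an embryo atlas, so the 2.74% rests on a gene that is not particular to the node. The region 94284 bp upstream of Gata6, a zinc finger factor of endoderm and heart, had fold enrichments of 10.2 and 5.04 in KO and 4.55 and 3.74 with CHIR, with no peak listed in WT, MUT or XAV libraries of day 3.

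At Nodal and T, whose products are the ligand that induces the streak and its T-box factor brachyury, the regions had peaks of similar fold enrichment on day 2. The region 7584 bp upstream of Nodal had fold enrichments of 4.56 and 3.75 in KO against 2.59 to 4.09 in the other libraries of day 3 and 3.40 to 4.40 on day 2, and it was open in KO replicate 2 of day 2. The region 8525 bp upstream of T had 5.09 and 4.07 in KO on day 3, 2.28 to 3.54 in the other day 3 libraries with a peak, and 3.73 to 5.72 on day 2, with no peak listed with CHIR, and it was open in KO replicate 1 of day 2. The KO values lay above all other day 3 values at T and overlapped them at Nodal, and at both genes they overlapped the values of day 2.

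Of 181 regions at 20 genes of Nodal, TGF-β and BMP signalling, 4 (2.21%) were KO-alone, at Lefty1, Smad3, Smad2 and Smad7, and 2 (1.10%) were KO-and-CHIR. Lefty1 encodes an inhibitor of Nodal, and its region 8564 bp upstream had fold enrichments of 4.11 and 3.53 in KO and no listed peak in the other 14 libraries. The region 1270 bp upstream of Smad3, an effector of Nodal, had 3.84 and 3.21 in KO and 1.97 to 2.92 in the other libraries of day 3. The regions at Smad2, an effector, and Smad7, an inhibitor of the pathway, ranked 40420 and 48224 on average in KO cells. Of 217 regions at 21 Wnt pathway genes 2 (0.922%) were KO-alone, near the 0.784% of all regions, and 6 (2.76%) KO-and-CHIR, against 0.785%. The KO-alone region 35380 bp upstream of the R-spondin ligand gene Rspo3 had fold enrichments of 8.54 and 4.68 in KO and 4.22 and 3.74 with CHIR. The region 7805 bp downstream of the TSS of the receptor gene Lgr5 had 6.76 and 4.68 in KO and 2.73 to 4.88 elsewhere on day 3. There KO replicate 2 lay within the range of the other groups.

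In the other lists, Bmp2 gave 2 of the 167 mesoderm regions (1.20%), Pax3 1 of 200 neuroectoderm regions (0.500%) and Tcl1 1 of 94 naive pluripotency regions (1.06%). No KO-alone region was found among 89 posterior and neuromesodermal, 139 formative and core pluripotency, 53 extraembryonic endoderm, 84 trophoblast, 61 fibroblast and 65 housekeeping regions. These counts, and the atlas shares below, can be read against the 0.784% of all regions that were KO-alone. At that share, a count of 0 or 1 in lists this small says little about a lineage. The 2 regions of Bmp2, a BMP ligand, lay 41089 bp and 70735 bp downstream of the TSS, both with a forkhead word, and the nearer had fold enrichments of 7.58 and 6.75 in KO and at most 3.57 in the other day 3 libraries. Among 12 marker lists from an embryo atlas, the shares ran from 0 (Angioblast, Ectoderm and Non-neural ectoderm) to 1.22% (Mesoderm, 6 of 491), with 1.16% for Endoderm (8 of 687, at Foxa2, T and 4 other genes) and 0.781% for Primitive Streak (2 of 256). The others had 1.03% (PGC), 0.840% (Epiblast), 0.730% (ExE mesoderm), 0.704% (ExE ectoderm), 0.663% (Visceral endoderm) and 0.315% (NMP).

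A deposited list of 1077 regions with more day 3 accessibility in KO than WT cells, made by a read-based comparison of the same libraries, overlapped 136 of the KO-alone regions (21.5%), 280 of the KO-and-CHIR regions (44.2%) and 926 of all regions (1.15%). It shares the day 3 libraries with the rule and is no independent measure.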

How the data were processed

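ATAC-seq peak lists of 16 libraries were analysed. The authors ran the ENCODE ATAC-seq pipeline on mm10. Each deposited peak has a fold enrichment at its summit, which is a ratio over local background, and the −log10 of its p and q. All listed peaks have a −log10 p of at least 2. No aligner is given in the sources used here. The submitters' processing notes name DiffBind 3.0.15, HOMER 2 and deepTools 3.4.3. Replicate 2 of each day 2 group carries the word merged in its list's name. The deposited lists of regions that differ between KO and WT hold coordinates and no fold or p.

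Peaks sharing start and end were counted once and ranked by −log10 p. Sequence and TSSs came from GRCm38.p6 and GENCODE M21, whose coordinates are those of mm10. Word shares in all other regions were weighted to the GC content of the set in bins of 5 percentage points. Occupancy on day 2 was compared with a two-sided exact permutation test over libraries, and everything else is described without a test. The regions, the 14 gene lists, the 20 word families and the comparisons were chosen with earlier results of these data known. Named were genes with at least 3 regions (at most 12), genes of the streak, node, endoderm, Wnt and Nodal lists, up to 3 regions of other lists and the 12 strongest regions. Python 3.11, numpy and pandas were used. The region, rank, test and word steps were tested on simulated data.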

Additional observations from a re-analysis of the deposited data

How the results depend on the processing

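No paired analysis was possible because the KO, WT and MUT libraries compared on day 2 come from different cell lines and share only replicate numbers given in order. Of 17 alternatives for the number of KO-alone regions, 13 stayed within 1.5 times of 632, which does not show that the same regions were kept. With 30000 peaks a library the number was 343, and with no deposited peak of any rank allowed in the other 8 day 3 libraries it was 24. With those 8 libraries closed in the top 75000, an alternative chosen after seeing the data, 164 of the 632 regions were left, of which 41.5% held a forkhead word. Leaving out 1 day 3 library at a time, which can only keep or raise the number, gave 672 to 1021, the highest without KO replicate 1. The day 2 difference between KO and the other genotypes kept its sign in all 12 alternatives, and was 2.37 to 3.01 percentage points with 1 day 2 library left out. It was 5.27 percentage points with every peak of a −log10 q of at least 2, where the exact permutation p was 0.667 and KO no longer stood apart from the other libraries, and 1.22 in the 164 regions closed in the top 75000. The distal share was 92.1% beyond 1 kb. In a window of 100 bp on either side of the middle 27.1% held forkhead and 10.8% TCF/LEF words, against 6.05% and 7.52% of other regions in that window. Those shares of other regions were not weighted to the GC content of the set. They cannot be set beside the weighted 11.7% and 14.6% of the wider window. With every peak of a −log10 q of at least 2 the TCF/LEF share was 12%. A shorter window and a nearer distance limit move these shares by their construction, and the cause of the other shifts was not tested. The number of streak, node and endoderm genes with such a region was 5 within 100 kb and 6 within 500 kb. Depth is unknown, so no precision from counting can be given.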
